A study of Mus musculus with 3 samples.

Results

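Within single-cell RNA profiles of the mouse otic vesicle, the epithelial cells that carried transcripts of the dorsal marker genes Dapl1, Bmper, Car4, Sostdc1, Ccdc80 and Gsg1 numbered 1011 of 8518 otic epithelial cells. They were chosen by a count rule. A barcode needed 1000 or more genes detected, no more than 10% of its unique molecular identifiers (UMIs) from mitochondrial genes, at least 1 UMI of the epithelial gene Epcam, at least 2 UMIs in all of the otic genes Fbxo2, Hmx2, Hmx3 and Pax2, and at most 1 UMI of the mesenchymal genes Prrx1 and Twist1. Of the otic cells so defined, those with a UMI of at least 3 of the 6 marker genes are called gated cells, and the 7507 that remained are called other otic cells. Of 37301 deposited barcodes, 26130 passed the filters on genes and mitochondrial UMIs.

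The study asked how SOX9 and Wnt activity bear on endolymphatic development in the otocyst. It profiled otic vesicles of embryonic day 10.5 mice (E10.5) with droplet 3′ sequencing. One library, labelled CD, came from Sox9Y440X/+ embryos, which carry 1 altered and 1 normal Sox9 allele. A pair of libraries, WT1 and WT2, came from wild type embryos. Vesicles were pooled before dissociation in every library, so a library is 1 pool, and the labels do not say whether the WT pools came from separate litters. With 1 CD library, all comparisons of genotype set it against the spread of 2 WT libraries, and p-values measure only how far these samples vary, which may be technical variation.

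The otic vesicle is a closed epithelial sac whose regions acquire different fates. Its dorsal wall, patterned by Wnt signals from the hindbrain and by BMP signals, grows out as the endolymphatic duct and sac and contributes to the semicircular canals, whereas its ventral wall forms neuroblasts, the prosensory patches and the cochlear duct. SOX9 and SOX10 are related SoxE transcription factors present throughout the otic epithelium, and Oc90 is the main protein component of the otoconial matrix. Bmper and Sostdc1 encode secreted modulators of BMP signalling, Car4 a membrane-bound carbonic anhydrase and Ccdc80 a secreted matrix-associated protein.

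Library totals were 186439890 UMIs over 12322 barcodes in CD, and 157373393 over 8330 and 202584468 over 16649 in WT1 and WT2. Summed over gated cells, the counts held 8631523 UMIs in CD and 9713337 and 8839199 in WT. The median gated cell held 24323 UMIs in CD and 27464 and 18335 in WT, so the CD median lay between the WT medians. Mitochondrial UMIs had a median share of 3.75% in CD gated cells and 2.48% and 3.41% in WT gated cells. Barcode sequences shared by 2 libraries numbered 28, 55 and 41 for the 3 pairs of libraries, and none was gated in both of its libraries. The doublet caller Scrublet marked 8 CD gated cells and 8 and 17 WT gated cells, which were kept in the main sums.

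Gated cells made up 11.98% of CD otic cells (309 of 2579; exact Clopper-Pearson 95% interval 10.8 to 13.3%). In WT they made up 12.59% (306 of 2430; 11.3 to 13.98%) and 11.29% (396 of 3509; 10.3 to 12.4%). The CD share lay between the WT shares, 0.042 percentage points above their mean of 11.94 ± 0.924% (SD, n = 2), so no difference in abundance was detectable under this rule. With Car4 dropped from the rule the share was 8.88% in CD, against 7.78% and 7.89% in WT, 1.04 percentage points above the WT mean (WT SD 0.082). With cells thinned to 5000 UMIs before the rule it was 2.62% in CD, against 3.06% and 3.21% in WT, 0.52 points below the WT mean (WT SD 0.106). Under both alternatives CD lay outside the WT shares, on opposite sides. CD also lay above both WT shares without Bmper (9.11%, against 8.97% and 8.41%) and without Ccdc80 (8.38%, against 8.31% and 7.41%). The same held with at least 4 markers required (6.90%, against 6.58% and 5.73%), while with Dapl1, Sostdc1 or Gsg1 dropped CD lay between the WT shares. In all of these the counting interval of CD overlapped those of WT. These intervals cover counting error only, and a share in the dissociated pool is not the size of a region in the embryo. Otic cells selected at full depth and holding at least 5000 UMIs were also thinned to 5000 UMIs. This removes the advantage of deeply sequenced cells at the marker step of the rule only. The share was then 2.76% of 2535 cells in CD, and 2.78% of 2410 and 3.99% of 3405 cells in WT. In neuronal cells without Epcam, Dapl1 had a UMI in 0.34% of CD and 0.965% of WT1 cells, at median depths of 15657 and 15863.5 UMIs. Among other otic cells, at median depths of 21719 and 24424.5 UMIs, Dapl1 had one in 7.53% of CD and 7.86% of WT1 cells.

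The marker genes chose the cells, so their levels are given as a description with no test. Levels are CPM values on 1 common scale over the 3 gated and 3 other otic sums. A gene's UMIs are scaled to the summed UMIs of the genes kept by the gene filter, adjusted by the TMM scaling factors of edgeR. Car4 stood at 71.3 CPM in CD, against 121 in WT1 and 100.3 in WT2, and it was the marker whose CD level lay clearly below both WT levels. Bmper stood at 55.1 CPM in CD, against 56.6 in WT1 and 77.6 in WT2, just under the lower WT value. Scaled to all UMIs without TMM factors, Bmper stood at 58.97 CPM in CD, 57.2 in WT1 and 78.4 in WT2, with CD between the WT values. Dapl1 had 58.8 CPM in CD, 51.9 in WT1 and 85.3 in WT2. Sostdc1 had 55.7 CPM in CD, 53.99 in WT1 and 84.2 in WT2. Ccdc80 had 116 CPM in CD, 86.6 in WT1 and 142 in WT2. Gsg1 had 26.3 CPM in CD, 17.5 in WT1 and 35.4 in WT2, and for these last markers the CD value lay between the WT values. In thinned otic cells each of the 15 marker pairs was found together 2.40 to 8.91 times as often as the product of the single shares, over the 3 libraries.

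Levels were also read on either side of the rule's threshold. Cells with exactly 3 markers, just inside it, numbered 131 in CD and 146 and 195 in WT, and cells with exactly 2, just outside, numbered 275 in CD and 304 and 374 in WT. Oc90, which the rule did not use, stood at 184 CPM in CD cells with 3 markers and 88.5 CPM in those with 2. In WT cells it stood at 1030.0 and 1987 CPM with 3 markers and at 692 and 1448 CPM with 2. Msx2, a homeobox gene that responds to BMP, had 136 CPM in CD, 78.3 in WT1 and 100.3 in WT2 cells with 3 markers. It had 85.6 CPM in CD, 38.4 in WT1 and 46.6 in WT2 cells with 2 markers. Both genes were thus higher inside the threshold in every library, with no sharp step at it. Whether these cells form a gradient or a mix of separate populations was not tested.

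**Figure D1:**
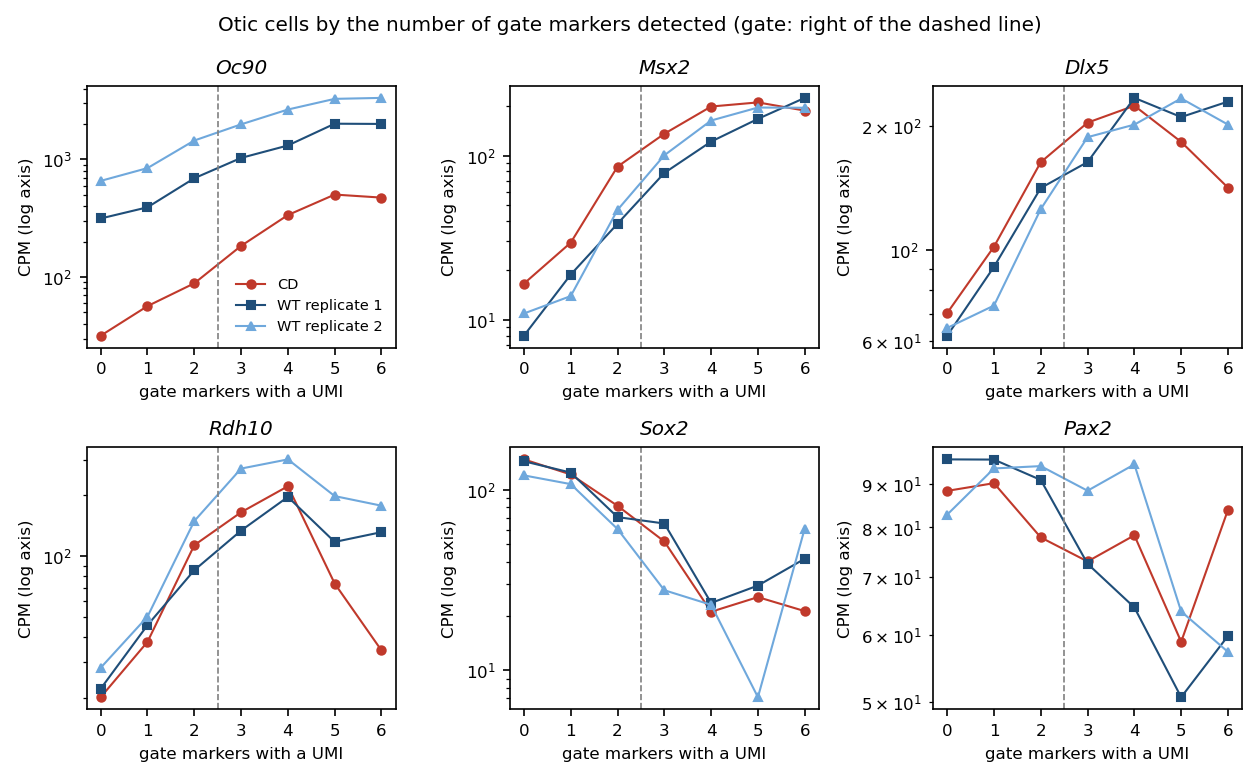
Levels (CPM, log axis) of Oc90, Msx2, Dlx5, Rdh10, Sox2 and Pax2 in otic cells grouped by how many of the 6 marker genes had a UMI, with 1 line per library and a dashed line at the threshold of 3. With 6 markers Rdh10 stood at 34.3 CPM in the 25 CD cells and at 132 and 178 CPM in the 26 and 30 WT cells, and Oc90 in CD lies below both WT lines throughout.

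Regional gene lists that leave out the marker genes were used to describe the gated cells. Each gene was read by the log2 ratio of the gated over the other otic level within each library. Of 16 measured dorsal and endolymphatic genes, 13 were higher in gated cells in all 3 libraries and 3 were lower in all 3, with a median log2 ratio of 0.93. Over all 15255 genes measured, 32.9% were higher and 34.4% lower in all 3 libraries and the median log2 ratio was -0.0067. Because the cells were chosen on correlated genes, these ratios describe the cells and were not tested. List members named for a ratio or as partners of a called gene were picked after their values were seen.

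Those higher included transcription factors of the dorsal vesicle. Msx2 had a log2 ratio of 2.32 in CD and 2.66 and 2.88 in WT, and Lmx1a, a LIM homeobox gene needed for the endolymphatic duct, of 0.92 in CD and 0.74 and 1.15 in WT. Dlx5 and Dlx6, homeobox genes required for dorsal otic outgrowth, had ratios of 0.96 in CD and 1.11 and 1.28 in WT, and of 0.87 in CD and 1.10 and 0.99 in WT. Gbx2, a homeobox gene also required there, was only a little higher, at 0.34 in CD and 0.37 and 0.77 in WT. Among secreted factors and enzymes, Bmp3, a BMP family ligand, had a ratio of 2.53 in CD and 2.59 and 2.84 in WT, Wnt2b of 1.61 in CD and 1.84 and 1.81 in WT, and Rdh10, the retinol dehydrogenase that starts retinoic acid synthesis, of 1.82 in CD and 1.77 and 2.13 in WT. The 3 dorsal-list genes lower in gated cells in every library were Bmp4, the POU gene Pou3f3, and Slc26a4, the endolymphatic anion exchanger pendrin. Slc26a4 was almost undetected, at 0 CPM in CD, 0.407 in WT1 and 0.224 in WT2. Foxi1, the regulator of endolymphatic ionocytes, reached only 0.541 CPM in CD, 1.83 in WT1 and 3.92 in WT2. Over all otic cells, scaled separately, it had 0.200 CPM in CD, 0.396 in WT1 and 0.720 in WT2. Both genes of the mature endolymphatic sac were thus low, with Foxi1 higher in gated cells than over all otic cells.

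Of the other regional lists, the posterolateral and ventral lists were mostly lower in gated cells, while the canal and lateral outgrowth list was mixed. In that list 4 of 10 genes were higher and 3 lower in all 3 libraries, with a median log2 ratio of 0.056. Of 9 medial genes, 5 were higher and 3 lower in gated cells in all 3 libraries, with a median log2 ratio of 0.98. Those higher included the Wnt ligand gene Wnt6, at 1.49 in CD and 1.54 and 1.85 in WT, and the zinc finger gene Sp9, at 1.76 in CD and 1.66 and 2.20 in WT. Of 8 posterolateral genes 6 were lower in every library (median -0.79), among them Otx2, a homeobox gene of the ventral and lateral vesicle, at -1.43 in CD and -1.08 and -1.35 in WT. Of 13 ventral prosensory and neurogenic genes 12 were lower in every library (median -1.46). Sox2, the SoxB1 factor of prosensory and neurogenic cells, had a ratio of -1.95 in CD and -1.46 and -2.11 in WT, and Lfng, a modifier of Notch, of -2.48 in CD and -1.48 and -2.76 in WT. By these lists the gated cells were dorsal in character with medial genes. At full depth the dorsal median was 0.87 in CD and 1.11 and 0.88 in WT. The lists were chosen with earlier results of these data known, so these values describe the cells and do not check the name. Thinning to 5000 UMIs before the rule, here and below, only chose the cells, and their full counts were summed. It left 27 CD and 28 and 57 WT gated cells, with a dorsal median of 0.098 in CD and 0.80 and 0.79 in WT. In CD the dorsal list was then barely above 0.

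**Figure D2:**
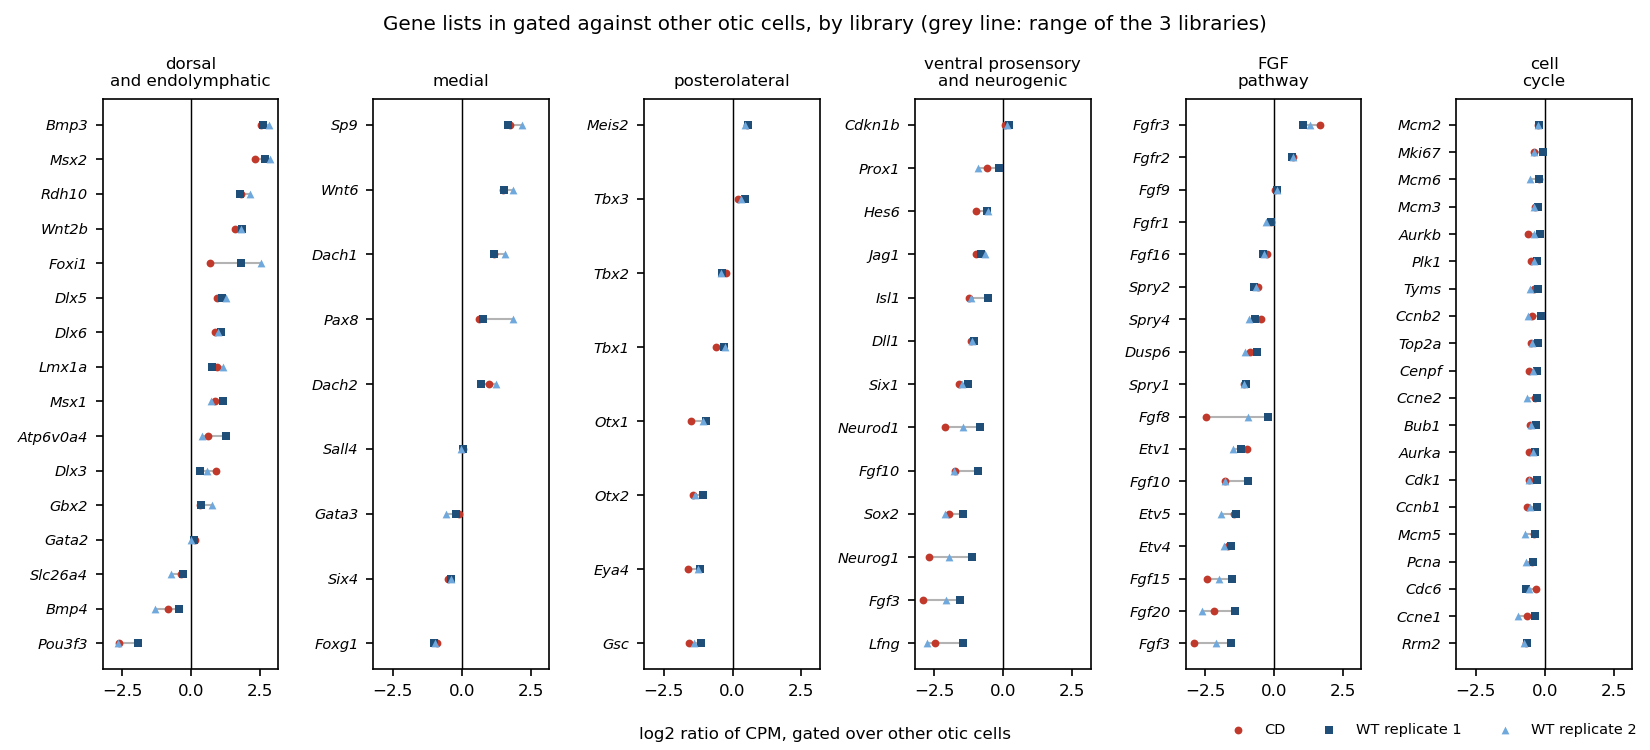
Log2 ratio of the level in gated over other otic cells for members of 6 gene lists, 1 point per gene and library, with a grey line spanning the 3 libraries of a gene. Most dorsal and endolymphatic genes lie above 0 (13 of 16 in all 3 libraries), most ventral genes below it (12 of 13), and all 20 cell cycle genes below it.

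Signalling lists also differed between the populations. In the FGF list 14 of 17 genes were lower in gated cells in every library (median -1.06), while the receptor genes Fgfr2 and Fgfr3 were higher, Fgfr3 by 1.67 in CD and 1.06 and 1.29 in WT. In the Notch list 10 of 16 were lower in every library (median -0.62). In the retinoic acid list 11 of 17 were higher in every library (median 0.46). They included the retinaldehyde dehydrogenase gene Aldh1a1, at 2.45 in CD and 2.04 and 2.55 in WT, the retinol transporter gene Stra6, at 1.25 in CD and 0.95 and 1.11 in WT, and the receptor gene Rarb, at 1.27 in CD and 1.37 and 1.20 in WT. Of 18 Wnt and beta-catenin target genes 10 were higher and 4 lower in every library (median 0.39). The summed level of the list was lower in gated than in other otic cells. It stood at 1298 against 1538 CPM in CD, 1444 against 1698 in WT1 and 1211 against 1510 in WT2. Notum and Apcdd1, secreted and membrane-bound Wnt inhibitors induced by the pathway, had ratios of 1.68 in CD and 1.76 and 2.49 in WT, and of 1.92 in CD and 1.83 and 2.16 in WT. Sp8, a zinc finger gene, had one of 2.46 in CD and 2.13 and 2.97 in WT.

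All 20 cell cycle genes were lower in gated cells in every library, with a median log2 ratio of -0.42. Ccne1, the G1/S cyclin E1, had log2 ratios of -0.64 in CD and -0.36 and -0.97 in WT. Aurkb, the mitotic Aurora B kinase, had ratios of -0.59 in CD and -0.17 and -0.40 in WT. The differences were small per gene and had 1 direction over the list.

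Over all genes, 365 of 15255 (2.39%) were at least 2-fold higher in gated cells in all 3 libraries and 70 (0.459%) at least 2-fold lower. Genes with at least 20 CPM in either population, the markers apart, were ranked by the lowest of their 3 library ratios. The top genes by this rank were Emp1, an epithelial membrane protein, at 3.53 in CD and 3.51 and 3.22 in WT, and Pyy, the hormone peptide YY, at 3.00 in CD and 4.66 and 4.71 in WT. Gabra2, a GABA-A receptor subunit, had ratios of 3.07 in CD and 2.95 and 3.69 in WT. The small heat-shock genes Hspb1 and Cryab had ratios of 3.09 in CD and 2.94 and 3.60 in WT, and of 2.88 in CD and 3.81 and 4.14 in WT, and by the mean over the libraries Pyy (4.12) and Cryab (3.61) stood above Emp1 (3.42).

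Other membrane, matrix, receptor and cytoskeletal genes made up the rest of the 15 highest. Anxa2, a calcium-dependent membrane-binding annexin, had ratios of 2.91 in CD and 3.16 and 3.42 in WT. The collagen genes Col5a3 and Col14a1 and the hyaluronan link protein gene Hapln1 had ratios between 2.71 and 3.63 in every library. Vnn1, Ahnak, Bmp3, the glutamate receptor gene Gria4, the myosin light chain gene Myl1 and the artemin receptor gene Gfra3 were the others. By the highest of the 3 library ratios, the lowest genes were Otol1, the otoconial scaffold otolin, at -2.44 in CD and -2.05 and -2.63 in WT, and Pou3f3, at -2.62 in CD and -1.94 and -2.65 in WT. Crym, Shisa2, the long non-coding RNA Pantr1, Sobp, Lfng, Sox2, Rorb and the helicase gene Brip1 followed. Otol1 and Oc90, both of the otoconial matrix, thus stood on opposite sides, since Oc90 had ratios of 2.53 in CD and 1.65 and 1.46 in WT.

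The genotype comparison began with the targeted gene. Sox9 had 758 CPM in CD, against 424 in WT1 and 409 in WT2. The WT libraries differed little and CD lay above both, and Sox9 rose (log2 change 0.87 ± 0.16, edgeR adjusted p = 0.0313, where ± gives the SE of the fit, past the threshold under 9 of 13 alternatives). A 3′ count does not tell the altered from the normal allele, so this level does not check the label.

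In gated cells 13792 genes were tested with edgeR's quasi-likelihood test, in which the CD library was assumed to vary as the WT pair does. At a Benjamini-Hochberg adjusted p under 0.05, 32 genes passed (0.232% of those tested), of which 8 rose (0.058%) and 24 fell (0.174%) in CD. At an unadjusted p under 0.05 there were 581 (4.21%). DESeq2 called 18 of 13524 genes (0.133%), all of them among the 32. The median log2 fold change over all genes was 0.0019, and CD lay outside both WT levels for 65.2% of genes (above them for 33.9%, below them for 31.3%). The count depended on the cells summed. It was 4 with Scrublet doublets left out (Oc90 and Cnmd among them), 1 with at least 4 markers required, and 0 after thinning to 5000 UMIs before the rule was applied.

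**Figure D3:**
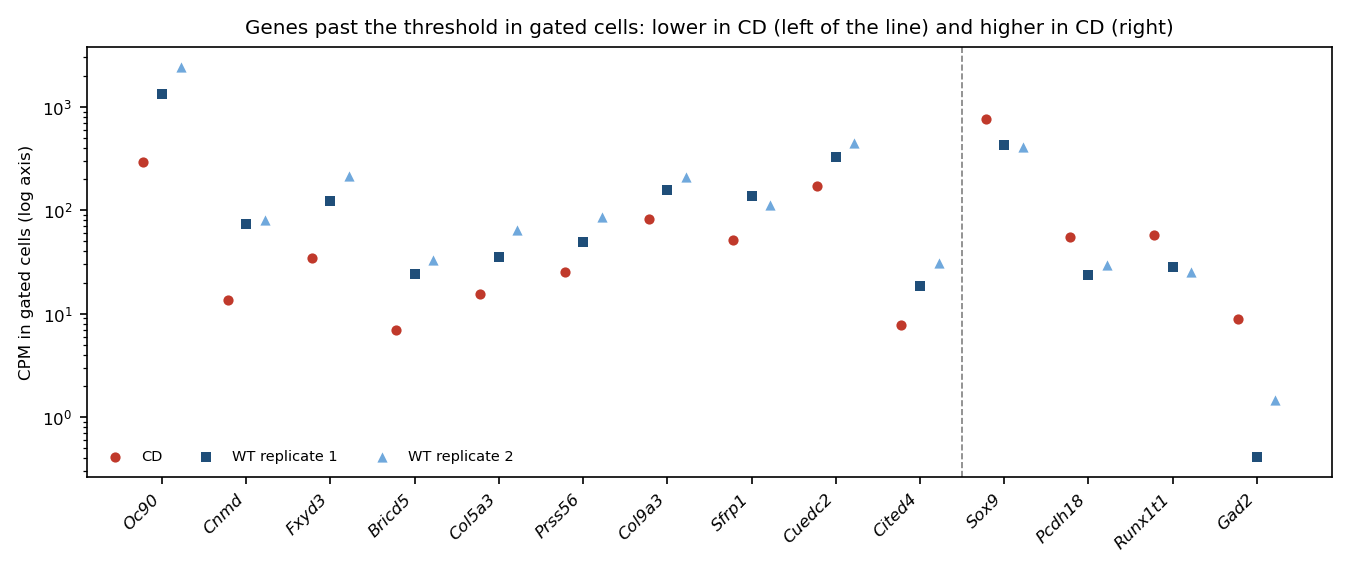
Level (CPM, log axis) in gated cells of 10 genes that fell and 4 that rose in CD, with the CD library and both WT libraries as separate points. For every gene drawn the CD point lies outside the WT points, for Oc90 at 289.6 CPM in CD, against 1320.1 in WT1 and 2453 in WT2.

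Among called genes with at least 10 CPM the largest falls were those of Oc90 and Cnmd, which encode secreted or matrix proteins. Oc90 had 289.6 CPM in CD, against 1320.1 in WT1 and 2453 in WT2. The WT libraries differed widely, but CD lay well below both, and Oc90 fell (log2 change -2.70 ± 0.28, edgeR adjusted p = 9.34e-05). It passed under 10 of 13 alternatives and missed the threshold in DESeq2 (adjusted p = 0.176). In the otolith and acellular matrix list it was the 1 gene of 7 tested that passed, and the median log2 fold change of that list was -1.28. Otol1 had 4.43 CPM in CD, against 12.9 in WT1 and 8.62 in WT2, and although CD lay below both WT values it did not pass (log2 change -1.28 ± 0.36, edgeR adjusted p = 0.303).

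Genes of cartilage-type matrix, several of them known SOX9 targets in chondrocytes, gave 2 falls and no rise among 13 tested, with a median log2 fold change of -0.29. Cnmd, which encodes the anti-angiogenic cartilage protein chondromodulin, had 13.6 CPM in CD, against 74.3 in WT1 and 81.1 in WT2. Its WT libraries were close together and CD lay far below them (log2 change -2.51 ± 0.23, edgeR adjusted p = 2.98e-05, past the threshold under 11 of 13 alternatives). Col9a3, a chain of type IX collagen, had 82.3 CPM in CD, against 156 in WT1 and 208 in WT2, again with CD below both WT libraries, and fell (log2 change -1.14 ± 0.21, edgeR adjusted p = 0.0269, past the threshold under 9 of 13 alternatives). Its partner chain gene Col9a1 had 78.5 CPM in CD, against 125 in WT1 and 151 in WT2 and did not pass (log2 change -0.81 ± 0.19, edgeR adjusted p = 0.134). Col2a1, the type II collagen gene, had 673 CPM in CD, 544 in WT1 and 648 in WT2, with CD just above both WT libraries, and did not pass (log2 change 0.18 ± 0.17, edgeR adjusted p = 0.999). Col5a3, a type V collagen chain and one of the genes most restricted to gated cells, had 15.4 CPM in CD, against 35.1 in WT1 and 64.02 in WT2 and fell (log2 change -1.68 ± 0.30, edgeR adjusted p = 0.0269). Mia, a secreted protein gene also expressed in cartilage, had 1.51 CPM in CD, against 8.76 in WT1 and 13.9 in WT2 and fell (log2 change -2.88 ± 0.44, edgeR adjusted p = 0.00598), and is named after its values were seen.

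The list of neural crest and glia markers had 2 falls among 8 genes tested (median log2 fold change -0.65), and its 9 members summed to 231 CPM in CD, 410 in WT1 and 425 in WT2. Foxd3, a transcription factor of neural crest, was near 0, with 0.216 CPM in CD, 1.02 in WT1 and 2.13 in WT2. Cdh19, a cadherin of Schwann cell precursors, was also near 0, with 0.108 CPM in CD, 0.204 in WT1 and 0.672 in WT2.

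In the list of carbonic anhydrases and ion transport genes 1 of 22 tested passed (median log2 fold change -0.23). Fxyd3, a small subunit that regulates the sodium pump, was strongly concentrated in gated cells, with log2 ratios of 2.96 in CD and 2.38 and 2.81 in WT. It had 34.4 CPM in CD, against 122 in WT1 and 215 in WT2 and fell (log2 change -2.29 ± 0.28, edgeR adjusted p = 0.000624), with CD below both WT libraries. It passed under 9 of 13 alternatives, not in DESeq2 (adjusted p = 0.321). Fxyd1, of the same family, had 1.30 CPM in CD, against 6.11 in WT1 and 9.29 in WT2 and fell (log2 change -2.55 ± 0.47, edgeR adjusted p = 0.0321). Slc24a4, a sodium-calcium-potassium exchanger, had 1.62 CPM in CD, against 6.11 in WT1 and 11.4 in WT2 and fell (log2 change -2.41 ± 0.48, edgeR adjusted p = 0.0464). These last genes, both low in CPM, are named after their values were seen. Car2, the main soluble carbonic anhydrase, had 142 CPM in CD, 180.1 in WT1 and 159 in WT2 and did not pass (log2 change -0.25 ± 0.18, edgeR adjusted p = 0.999).

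Further genes fell as well. Bricd5, a BRICHOS-domain gene, had 6.92 CPM in CD, against 24.04 in WT1 and 33.2 in WT2 (log2 change -2.04 ± 0.28, edgeR adjusted p = 0.00225). Prss56, a serine protease gene, had 25.1 CPM in CD, against 49.5 in WT1 and 85.96 in WT2 (log2 change -1.43 ± 0.28, edgeR adjusted p = 0.0462), and Cited4, a transcriptional coactivator gene, had 7.79 CPM in CD, against 18.6 in WT1 and 31.1 in WT2 (log2 change -1.67 ± 0.31, edgeR adjusted p = 0.0356). In each of them CD lay below both WT libraries, and Prss56 and Cited4 passed under 6 of 13 and 5 of 13 alternatives. Cuedc2, an abundant ubiquitin-binding protein gene, had 171 CPM in CD, against 327 in WT1 and 449 in WT2 and fell (log2 change -1.18 ± 0.20, edgeR adjusted p = 0.02), and Kif19a, a kinesin of motile cilia, had 3.79 CPM in CD, against 11.1 in WT1 and 13.99 in WT2 and fell (log2 change -1.72 ± 0.34, edgeR adjusted p = 0.0462). Both are named after their values were seen. Sfrp1, a secreted Wnt antagonist that was lower in gated than in other otic cells, had 51.6 CPM in CD, against 137 in WT1 and 113 in WT2 and fell (log2 change -1.27 ± 0.20, edgeR adjusted p = 0.0102).

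Nefm, Sncg and Mt1 fell on the counts of few cells. Nefm, a neurofilament subunit of neurons, had 14.8 CPM in CD, against 61.4 in WT1 and 66.6 in WT2 (log2 change -2.11 ± 0.23, edgeR adjusted p = 0.000119). The 3 cells richest in Nefm held 55.5%, 92.4% and 72.1% of its UMIs in the CD, WT1 and WT2 libraries. Sncg, a synuclein of sensory neurons, had 0.865 CPM in CD, against 4.79 in WT1 and 9.96 in WT2 (log2 change -3.06 ± 0.57, edgeR adjusted p = 0.0344), and its log2 fold change was -3.45 without WT1 and -2.40 without WT2. For Mt1 the 3 richest cells held 45.1%, 80.3% and 78.5% in the same order. With cells holding transcripts of other cell types left out, the log2 fold change was -0.30 for Nefm and -0.997 for Sncg, and neither passed (edgeR adjusted p = 0.998 for both). Mt1, a metallothionein, had 23.04 CPM in CD, against 45.5 in WT1 and 77.5 in WT2 (log2 change -1.41 ± 0.28, edgeR adjusted p = 0.0462), and without those cells its log2 fold change was 0.46 (edgeR adjusted p = 0.998).

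Haemoglobin genes gave another 5 of the 24 falls. Their summed level was 2165 CPM in CD, 7092 in WT1 and 6847 in WT2 gated cells. The 3 richest cells held 60.9% of these UMIs in CD and 93.8% and 90.9% in WT. With the 1 CD and the 2 and 3 WT gated cells over 1% haemoglobin UMIs left out, the level was 871 CPM in CD, 456 in WT1 and 633 in WT2, and CD lay above both. The direction of the sum thus turned with these cells left out.

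The rises were fewer. Runx1t1, a transcriptional corepressor of the ETO family, had 57.3 CPM in CD, against 28.02 in WT1 and 25.3 in WT2 and rose (log2 change 1.11 ± 0.20, edgeR adjusted p = 0.025). Pcdh18, a protocadherin, had 55.4 CPM in CD, against 23.4 in WT1 and 29.4 in WT2 and rose (log2 change 1.07 ± 0.21, edgeR adjusted p = 0.0399). In both genes CD lay above both WT libraries. Runx1t1 passed under 9 of 13 alternatives and Pcdh18 under 7 of 13. In the full counts of the fewer cells chosen after thinning to 5000 UMIs, the log2 change of Runx1t1 was -0.0039. In DESeq2 the adjusted p was 0.205 for Runx1t1 and 0.361 for Pcdh18.

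A further 4 rises are named after their values were seen. Gad2, which encodes the GABA-synthesising enzyme GAD65, had 8.98 CPM in CD, against 0.407 in WT1 and 1.46 in WT2 and rose (log2 change 3.28 ± 0.50, edgeR adjusted p = 0.00651). Its log2 fold change was 2.57 without WT1 and 4.30 without WT2. The predicted gene Gm45184 had 5.41 CPM in CD, against 0.917 in WT1 and 0.224 in WT2 (log2 change 3.19 ± 0.61, edgeR adjusted p = 0.0399), with log2 fold changes of 4.29 without WT1 and 2.496 without WT2. Ajap1, a protein of adherens junctions, had 5.19 CPM in CD, against 0.815 in WT1 and 0.783 in WT2 (log2 change 2.68 ± 0.53, edgeR adjusted p = 0.0462), and the predicted gene Gm2694 had 23.4 CPM in CD, against 8.86 in WT1 and 4.92 in WT2 (log2 change 1.76 ± 0.30, edgeR adjusted p = 0.0188). Apart from Gm2694 these transcripts stayed under 10 CPM in every library. None of the 4 passed in DESeq2 (adjusted p = 0.201 for Gad2 and 0.282 for Gm2694). None passed with doublets left out or with at least 4 markers required.

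In the list of general otic epithelium markers, Sox9 rose and Oc90 fell of 15 tested (median log2 fold change 0.012). Among the SOX genes Sox9 alone passed, 1 of 15 tested (median log2 fold change 0.034). Sox10 had 81.98 CPM in CD, against 129 in WT1 and 151 in WT2. CD lay below both WT libraries, but the difference did not pass (log2 change -0.77 ± 0.19, edgeR adjusted p = 0.16). Sox8, the third SoxE member, had 1.95 CPM in CD, against 8.56 in WT1 and 6.72 in WT2 and did not pass either (log2 change -1.96 ± 0.42, edgeR adjusted p = 0.0737). Sox2 had 32.8 CPM in CD, 46.4 in WT1 and 25.9 in WT2, with CD between the WT values.

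No dorsal or endolymphatic gene passed, of 14 tested, and the list's median log2 fold change of 0.094 compares with 0.0019 over all genes. Dlx5 had 187 CPM in CD, 193 in WT1 and 198 in WT2 (log2 change -0.055 ± 0.17, edgeR adjusted p = 0.999), a CD value just under both WT values. Gbx2 had 58.6 CPM in CD, against 46.7 in WT1 and 43.2 in WT2 (log2 change 0.39 ± 0.19, edgeR adjusted p = 0.999), and Lmx1a had 191 CPM in CD, 165 in WT1 and 194 in WT2. Rdh10 had 145 CPM in CD, 146 in WT1 and 254 in WT2, with CD just under the lower WT library. Foxi1 had 0.541 CPM in CD, against 1.83 in WT1 and 3.92 in WT2 (log2 change -2.37 ± 0.76, edgeR adjusted p = 0.519), too few counts to place. The fold changes of these genes had SEs of 0.17 to 0.76 on the log2 scale, so smaller differences than those called could not be detected with these libraries.

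The remaining regional lists were also without a call. None of 9 medial genes passed (median log2 fold change 0.14), nor any of 13 ventral genes (median -0.21) or 10 canal and lateral outgrowth genes (median 0.0086). None of 8 posterolateral genes passed (median -0.33). Of them 4 had an unadjusted edgeR p under 0.05, against 4.21% of all genes tested. That count was 0 in the medial and the canal lists and 1 in the ventral list. It was 5 of 7 in the otolith and acellular matrix list and 5 of 13 in the cartilage-type matrix list. Otx2 had 7.68 CPM in CD, against 18.8 in WT1 and 19.7 in WT2, below both WT libraries (log2 change -1.32 ± 0.27, edgeR adjusted p = 0.0574), and Gsc, a homeobox gene, had 3.68 CPM in CD, against 7.33 in WT1 and 7.83 in WT2 (log2 change -1.04 ± 0.36, edgeR adjusted p = 0.706). Sema3e, a guidance ligand gene of the canal list, had 49.8 CPM in CD, 30.1 in WT1 and 46.3 in WT2, and its receptor-family gene Plxna4 had 51.2 CPM in CD, 63.1 in WT1 and 68.3 in WT2.

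BMP genes showed no call in any of 4 lists. Of ligands 0 of 6 passed (median log2 fold change 0.53), of receptors and SMADs 0 of 10 (median 0.17), of extracellular modulators 0 of 9 (median 0.20) and of response genes 0 of 12 (median 0.29). Bmp4 had 39.4 CPM in CD, against 28.02 in WT1 and 18.7 in WT2 (log2 change 0.75 ± 0.23, edgeR adjusted p = 0.449). Msx1 and Msx2, homeobox targets of BMP, had 68.4 CPM in CD, against 47.5 in WT1 and 46.8 in WT2 (log2 change 0.54 ± 0.19, edgeR adjusted p = 0.706), and 161 CPM in CD, against 114 in WT1 and 138 in WT2 (log2 change 0.36 ± 0.18, edgeR adjusted p = 0.999). In these genes CD lay above both WT libraries, by differences that did not pass. Crim1, a transmembrane BMP modulator, had 45.7 CPM in CD, against 31.6 in WT1 and 30.8 in WT2 (log2 change 0.56 ± 0.20, edgeR adjusted p = 0.706).

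Wnt target genes lay mostly above 0 in fold change, without a call. Of 17 tested 0 passed, 13 had a log2 fold change above 0, against 50.4% of all genes, and 14 lay outside both WT levels, against 65.2% of all genes. Their median log2 fold change was 0.41. Other lists were as one-sided, with 9 of 10 BMP receptor and SMAD genes and 8 of 9 medial genes above 0. In the other direction, 1 of 7 otolith and acellular matrix genes lay above 0. The summed level of the Wnt target list in gated cells was 1298 CPM in CD, between 1444 in WT1 and 1211 in WT2. Lef1, a nuclear effector and target of the pathway, had 93.99 CPM in CD, against 64.996 in WT1 and 65.8 in WT2 (log2 change 0.53 ± 0.18, edgeR adjusted p = 0.689). Axin2, a feedback inhibitor, had 60.1 CPM in CD, against 49.3 in WT1 and 47.2 in WT2 (log2 change 0.32 ± 0.19, edgeR adjusted p = 0.999), and Notum had 43.7 CPM in CD, against 26.3 in WT1 and 29.996 in WT2 (log2 change 0.64 ± 0.20, edgeR adjusted p = 0.48). None of 10 Wnt ligand genes passed (median 0.39), where Wnt5a had 68.03 CPM in CD, 43.5 in WT1 and 55.6 in WT2 and Wnt7b had 19.4 CPM in CD, against 29.6 in WT1 and 34.5 in WT2. Of 11 Wnt antagonist genes Sfrp1 alone passed (median 0.087). The direction over a list is a description, since all its genes come from the same 3 libraries.

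The other lists gave no call. These were 15 FGF genes (median log2 fold change 0.064), 15 Notch genes (-0.22), 16 retinoic acid genes (-0.12), 20 cell cycle genes (-0.075) and 12 immediate early and stress genes (-0.14). Nrp2, the semaphorin receptor neuropilin-2, was concentrated in gated cells, with log2 ratios of 2.01 in CD and 1.76 and 2.43 in WT. It had 337 CPM in CD, against 132 in WT1 and 217 in WT2, above both WT libraries, and did not pass (log2 change 0.95 ± 0.22, edgeR adjusted p = 0.101). Among other otic cells, which are more numerous, it rose (log2 change 1.10, edgeR adjusted p = 0.0219).

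Markers of other cell types gave small sums in gated cells. The 13 mesenchyme markers summed to 85.1 CPM in CD, 53.7 in WT1 and 84.8 in WT2, and 0 of 12 tested passed, with Dcn, a proteoglycan of mesenchyme, at 10.3 CPM in CD, against 3.46 in WT1 and 3.25 in WT2 (log2 change 1.61 ± 0.34, edgeR adjusted p = 0.071). The 12 neuroblast and neuron markers summed to 202 CPM in CD, 227 in WT1 and 278 in WT2, with 0 of 11 passing and Neurod4 at 0 in WT2. The 9 neural tube markers summed to 75.6 CPM in CD, 71.5 in WT1 and 63.1 in WT2, with 0 of 5 passing and Olig2 at 0 in every library.

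Of the other marker lists, the 9 endothelium markers summed to 53.3 CPM in CD, 16.3 in WT1 and 42.6 in WT2, with 0 of 9 passing. The 9 erythroid markers summed to 1958 CPM in CD, 6965 in WT1 and 6706 in WT2, and 5 of them fell. The 8 macrophage markers summed to 2.81 CPM in CD, 12.3 in WT1 and 3.02 in WT2, with 0 of 3 passing, C1qc at 0 in CD and Ptprc at 0 in WT2. The 10 surface ectoderm markers summed to 801 CPM in CD, 725 in WT1 and 892 in WT2, of which Krt8, which otic epithelium also expresses, had 326 CPM in CD, 273 in WT1 and 322 in WT2, and 0 of 4 passed. Cells with transcripts of neuronal, endothelial, macrophage or red blood cells numbered 12 in CD and 10 and 20 in WT. With them left out the count of genes that passed was 26. Apart from the values given for named genes, the part of such cells in the results was not tested.

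The same comparison was made in other otic cells. There 29 of 16577 genes passed (0.175%), of which 7 rose (0.0422%) and 22 fell (0.133%), and 753 had an unadjusted p under 0.05 (4.54%). Both comparisons use the same 3 pools, controls included, so their values are given side by side and their overlap is not read as a result. Cnmd had a log2 fold change of -2.51 in gated and -2.63 in other otic cells. For Fxyd3 the values were -2.29 in gated and -2.73 in other otic cells, for Col9a3 -1.14 and -1.24, and for Runx1t1 1.11 and 1.08. In each of these genes both values passed. Sox9 had 0.87 in gated and 0.82 in other otic cells, where it did not pass (log2 change 0.82, edgeR adjusted p = 0.1).

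**Figure D4:**
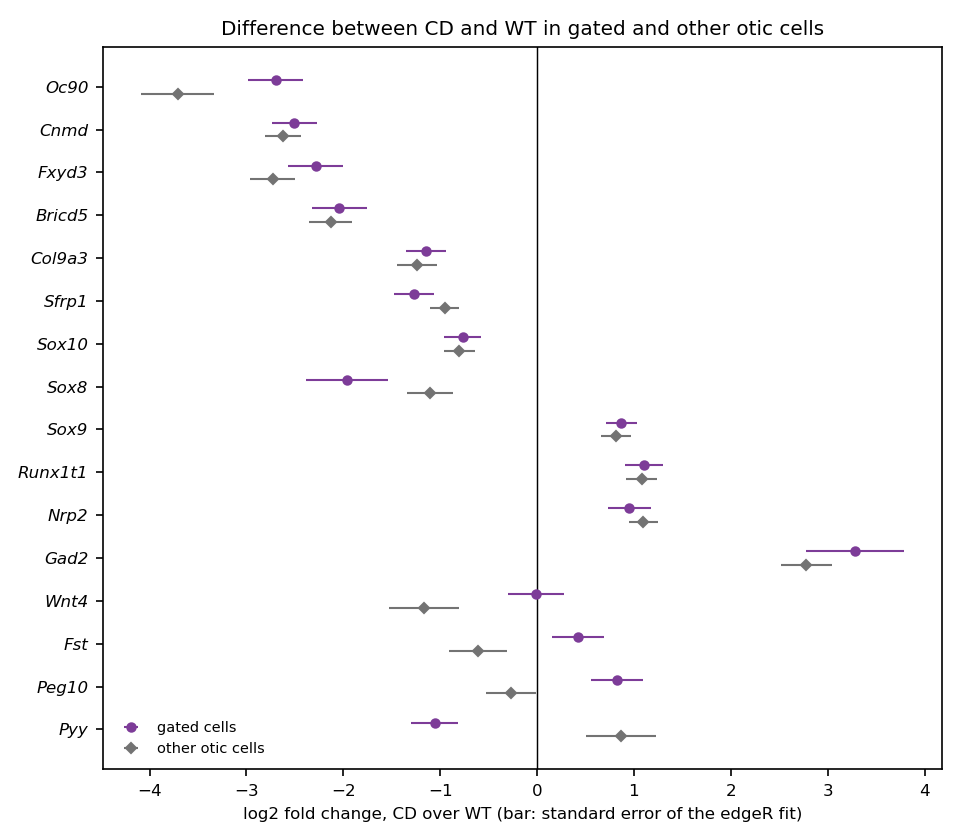
Log2 fold change of CD over WT for 16 genes in gated cells (purple) and in other otic cells (grey), with bars of 1 SE of the fit. Cnmd lies at -2.51 in gated and -2.63 in other otic cells, whereas Oc90 lies at -2.70 in gated and -3.71 in other otic cells.

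Whether an effect differed between the populations was tested with an interaction term in 1 fit over the 6 sums, with the library as a block. Of 16436 genes 33 passed (0.201%), 10 with a higher (0.0608%) and 23 with a lower fold change in gated cells (0.14%), and 795 had an unadjusted p under 0.05 (4.84%). Oc90 fell less in gated than in other otic cells, by a difference in log2 fold change of 0.99 ± 0.12, edgeR adjusted p = 0.000472. That difference passed under 12 of 13 alternatives, and after thinning it was 0.31 (edgeR adjusted p = 0.938). Its level in other otic cells was 49.7 CPM in CD, 419 in WT1 and 893 in WT2. Cnmd, by contrast, had a difference of 0.12 ± 0.15, edgeR adjusted p = 1, and Sox9 of 0.051 ± 0.11, edgeR adjusted p = 1, neither past the threshold. For Fxyd3 the difference was 0.48 ± 0.19, edgeR adjusted p = 0.907.

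Wnt4, Fst and Pyy also differed between the populations. Wnt4, a Wnt ligand gene higher in gated cells, had 36.7 CPM in CD, 25.3 in WT1 and 49.1 in WT2 among gated cells, so CD lay between the WT values there. Outside the gate it had 8.28 CPM in CD, 11.7 in WT1 and 25.8 in WT2, where CD lay below both, and the difference passed (1.14 ± 0.15, edgeR adjusted p = 0.000785). Fst, which encodes the activin and BMP antagonist follistatin, had 33.9 CPM in CD, 17.9 in WT1 and 32.8 in WT2 among gated cells. Its level in other otic cells was 22.99 CPM in CD, 24.05 in WT1 and 46.7 in WT2, and the difference passed (1.03 ± 0.14, edgeR adjusted p = 0.00105). Pyy had 19.9 CPM in CD, against 34.1 in WT1 and 49.1 in WT2 among gated cells, with CD below both WT libraries. The other otic cells had 2.06 CPM in CD, 0.871 in WT1 and 1.40 in WT2, with CD above both (-1.93 ± 0.24, edgeR adjusted p = 0.000472). None of these 3 genes passed within either population alone, and each difference passed under 10 of 13 alternatives. After thinning, the difference did not pass for Wnt4 (0.33) or Pyy (-0.96) and turned for Fst (-1.08), each with an edgeR adjusted p of 1. With at least 4 markers required it did not pass for any of them (0.77 for Wnt4, 1.21 for Fst and -0.74 for Pyy). In DESeq2 the adjusted p was 0.286 for Wnt4 and 0.409 for Fst, and with at least 2 markers the Pyy difference was -1.16 (edgeR adjusted p = 0.107).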

How the data were processed

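Per the labels' protocols, pooled E10.5 otic vesicles were dissociated and sequenced with the Chromium 3′ v3.1 chemistry on a NovaSeq instrument. The deposited values are raw UMI counts per gene and barcode for 32285 features, made with Cell Ranger 6.0.0 per the file headers on build mm39 per the submitters' processing notes. No other filter is stated in the sources used here.

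Counts were summed per library over gated and over other otic cells in Python 3.11.15 (numpy 2.4.6, scipy 1.17.1, pandas 2.3.3). Doublets were scored with Scrublet in scanpy 1.11.5. The sums were tested in R 4.3.3 with edgeR 4.0.16 (limma 3.58.1), with TMM scaling, filterByExpr and the quasi-likelihood F test, and p-values were adjusted by Benjamini-Hochberg over all genes tested. The 13 genes of the cell rule were left out of the calls. The WT pair leaves 1 residual degree of freedom, moderated across genes, and the SE is the absolute log2 fold change over the square root of F. The steps were tested on simulated counts. A result past the threshold has an adjusted p under 0.05. DESeq2 1.42.0 was the alternative test. Other alternatives changed the cell filters, the number of markers, the depth, the size factors, the gene filter or the libraries kept. Figures were drawn with matplotlib 3.10.9.

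The members and the 33 gene lists were chosen with earlier results of these data known. Genes are named by 1 rule. It takes a fixed set of SOX, otic, BMP and Wnt genes and up to 10 genes each way past the threshold with at least 10 CPM and a change larger than the gap between the WT libraries. It adds up to 4 called members of each list, or else the 2 of smallest p. Of the ratios it takes the 15 highest and 10 lowest, and of the interaction up to 5 each way. A few genes that the rule takes are not reported here. CD and WT share only replicate number 1, so no pairing was used.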

Additional observations from a re-analysis of the deposited data

Results flagged for a closer look

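Of the 33 genes past the threshold in the interaction test, the 5 of smallest p in each direction are given, haemoglobin genes passed over. In these 10 the genotype effect in gated cells differed from that in other otic cells (edgeR quasi-likelihood test, differences given in log2 fold change, gated minus other otic). Of these, 5 kept the call with cells holding transcripts of other cell types left out. They were Oc90 (0.99 ± 0.12, edgeR adjusted p = 0.000472; 1.01 with those cells left out), Wnt4 (1.14 ± 0.15, edgeR adjusted p = 0.000785; 1.15), Fst (1.03 ± 0.14, edgeR adjusted p = 0.00105; 1.03), Pyy (-1.93 ± 0.24, edgeR adjusted p = 0.000472; -1.95) and the imprinted retrotransposon-derived gene Peg10 (1.10 ± 0.17, edgeR adjusted p = 0.00443; 0.91). After thinning to 5000 UMIs before the rule none of the 5 passed, with differences of 0.31 for Oc90, 0.33 for Wnt4, -1.08 for Fst, -0.96 for Pyy and 1.23 for Peg10.

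The other 5 lost it when those cells were left out. For the endothelial receptor gene Kdr the difference was 2.11 ± 0.37, edgeR adjusted p = 0.0152, and 0.084 with those cells left out. The metallothionein genes Mt1 and Mt2 had differences of -1.97 ± 0.15, edgeR adjusted p = 1.47e-06, and of -1.99 ± 0.25, edgeR adjusted p = 0.000472, and of 0.45 and 0.075 with those cells left out. The neuronal gene Stmn2 had -1.21 ± 0.15, edgeR adjusted p = 0.000491, and -0.042 with those cells left out. The red cell anion exchanger gene Slc4a1 had -2.90 ± 0.37, edgeR adjusted p = 0.000575, and -0.39 with those cells left out.

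Oc90 had 289.6 CPM in CD, against 1320.1 in WT1 and 2453 in WT2 among gated cells. Its level in other otic cells was 49.7 CPM in CD, 419 in WT1 and 893 in WT2, so the WT libraries themselves differed in its level in both populations. Peg10 had 21.6 CPM in CD, 14.8 in WT1 and 9.63 in WT2 among gated cells, with CD above both WT values. The other otic cells had 13.7 CPM in CD, 20.4 in WT1 and 12.8 in WT2, with CD between them. Differences are given ± SE of the fit.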

How the results depend on the processing

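No paired analysis was possible because CD and WT share only 1 replicate number. Of the 13 alternatives, 2 were chosen after seeing the data (cells over 1% haemoglobin UMIs, or holding transcripts of other cell types, left out). Over the 13, 980 values of single genes kept their direction and side of the threshold, 28 passed newly, 156 no longer passed and 27 turned. A further 6 alternatives, each dropping a marker from the rule, applied to the share alone and are not in these counts. Leaving out a WT library left no residual degree of freedom and so gave values with no test. Of these values 109 moved by less than the SE of the main fit and 63 moved further. No gene past the threshold turned, and turns of other genes were not counted separately. The cause was not tested for any of the changes below.

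Genes called in gated cells, 32 as reported, numbered 4 with doublets left out, 11 with at least 2 markers, 1 with at least 4 markers, 18 with haemoglobin-rich cells left out, 0 after thinning (208 at an unadjusted p under 0.05), 86 with equal cells and UMIs per library, 130 with no gene filter and 18 in DESeq2. Those called in other otic cells, 29 as reported, numbered 11 with at least 5000 UMIs per cell, 189 with at least 2 markers, 53 with the looser cell filter, 69 without cells holding transcripts of other cell types, 77 after thinning, 9 with no gene filter and 49 in DESeq2. The interaction, 33 as reported, gave 5 with doublets left out, 84 with at least 2 markers, 1 with at least 4, 65 with the looser filter, 57 with no Prrx1 or Twist1 UMI, 19 without haemoglobin-rich cells, 15 after thinning, 75 with equal cells and UMIs, 97 with no gene filter and 7 in DESeq2. Without Car4 in the rule the CD share exceeded the WT mean by 1.04 percentage points. After thinning, the median log2 ratio of the dorsal list was 0.098 in CD and 0.80 and 0.79 in WT, on average 0.56 ± 0.40 (SD), against 0.95 ± 0.13 without thinning.

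Among the genes recomputed one by one, which leave out haemoglobin genes and those named for their ratio alone, the log2 fold changes in gated cells that turned were Sox2 0.096, Dlx5 0.082, Neurod1 0.055 and Slc4a1 0.22 with at least 2 markers. After thinning they were Runx1t1 -0.0039, Msx1 -0.42, Axin2 -0.13, Sema3e -0.42, Bmp3 -0.33, Bmpr1a -0.30 and Ccne1 0.25. Zic1 was -0.019 with at least 4 markers and Kdr -0.099 with no Prrx1 or Twist1 UMI. Slc4a1 was 0.26 without haemoglobin-rich cells and 0.28 without cells holding transcripts of other cell types, and under the same alternatives Mt1 was 0.37 and 0.46 and Mt2 0.30 and 0.35. Wnt4 was 0.0072 with doublets left out and 0.061 with no Prrx1 or Twist1 UMI. Of the 10 differences between the populations given one by one, those that turned were Fst -1.08, Kdr -5.94 and Stmn2 0.087 after thinning, Mt1 0.34 without haemoglobin-rich cells and 0.45 without cells holding transcripts of other cell types, and Mt2 0.075 with those same cells left out.

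One CD pool, 1 residual degree of freedom and sums of 306 to 396 gated cells limit what can be called.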
